A study of Mus musculus with 12 samples.

Results

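The secreted Wnt antagonists described here are 9 genes of the secreted frizzled-related protein, Wnt inhibitory factor and Dickkopf families: Sfrp1, Sfrp2, Sfrp4, Sfrp5, Frzb, Wif1, Dkk1, Dkk2 and Dkk3. They were selected by gene symbol, as the rows of the expression table whose only annotated symbol was 1 of these 9, out of 19938 genes with such a row. Each was represented by exactly 1 transcript cluster, a set of probes summarised as 1 value. The group was proposed with results of these data in view, Sfrp1 having been 1 of 21 clusters that limma called for PDGF-AA averaged over AMOs with the replicate number as a block (0 were called without it), so every PDGF-AA change of a member is given as a description, with no test.

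Fibro/adipogenic progenitors (FAPs), mesenchymal cells of skeletal muscle that can form fibroblasts and adipocytes, were isolated from uninjured hindlimb muscle of wild-type male C57/Bl6 mice 8 to 12 weeks old. Their RNA was measured on 12 Affymetrix Mouse Gene 1.0 ST arrays after treatment in culture, and each replicate pooled cells of 2 mice. The series deals, by its title, with muscle fibrosis and with PDGFRα transcripts, which encode the receptor for PDGF-AA, that end early in an intron. All cells received 10 µM of 1 of 3 antisense oligonucleotides (AMOs): a control AMO, a pA AMO against the intronic polyadenylation site of PDGFRα, or a 5'ss AMO against an intronic PDGFRα 5' splice site. A second dose of the same AMO was given after 48 hours, either without PDGF-AA or with PDGF-AA at a concentration the labels give as 50 uM, and RNA was extracted 48 hours later. These 3 AMOs and 2 PDGF-AA conditions made 6 groups of 2 arrays, so the model is a culture of pooled cells and the number of arrays limits the precision.

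Wnt ligands bind Frizzled receptors and the co-receptors LRP5 and LRP6, which stabilises β-catenin and switches on target genes in the canonical branch of the pathway. Secreted frizzled-related proteins and Wif1 bind Wnt ligands outside the cell, whereas Dkk1 and Dkk2 bind LRP5 and LRP6. Dkk3 is a divergent member of its family that does not act as a typical inhibitor at LRP5 and LRP6. In mesenchymal progenitors, canonical Wnt signalling is known to restrain adipocyte differentiation, and in skeletal muscle it has been linked to fibrosis.

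RefSeq promoter sequences, on the build GRCm38.p6, were given for 6 of the 9 genes: Sfrp2, Sfrp5, Frzb, Wif1, Dkk1 and Dkk2. The 250 bases before the annotated start are shown for Sfrp2 and Dkk2, which were lower with PDGF-AA under control AMO, and for Dkk1, which was higher there. Capitals mark matches, on either strand, to the GC box GGGCGG, the TATA motif TATAAA, or the TCF/LEF form CTTTGAA or its variants CTTTGAT or CTTTGTA or also CTTTGTT. The AP-1 form TGACTCA and its variant TGAGTCA were also searched. None of these motifs overlaps another in the sequences shown.
Sfrp2, chr3:83766071-83766320, plus strand: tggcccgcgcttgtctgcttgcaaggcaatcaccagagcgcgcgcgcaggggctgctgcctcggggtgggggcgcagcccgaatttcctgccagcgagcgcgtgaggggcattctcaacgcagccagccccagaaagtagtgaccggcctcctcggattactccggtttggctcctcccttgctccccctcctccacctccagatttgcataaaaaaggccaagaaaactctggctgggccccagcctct
Dkk2, chr3:132085042-132085291, plus strand: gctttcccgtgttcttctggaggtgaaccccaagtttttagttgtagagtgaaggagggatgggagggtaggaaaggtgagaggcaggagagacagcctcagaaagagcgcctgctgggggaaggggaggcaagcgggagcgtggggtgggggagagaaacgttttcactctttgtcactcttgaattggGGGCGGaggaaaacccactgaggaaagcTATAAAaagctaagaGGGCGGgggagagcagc
Dkk1, chr19:30549497-30549746, minus strand: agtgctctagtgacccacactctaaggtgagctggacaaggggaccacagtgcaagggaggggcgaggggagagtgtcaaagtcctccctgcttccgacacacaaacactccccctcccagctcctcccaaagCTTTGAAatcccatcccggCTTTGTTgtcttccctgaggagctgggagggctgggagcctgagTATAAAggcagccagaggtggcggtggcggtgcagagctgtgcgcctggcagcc

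The Sfrp2 window held none of the searched letters, had 63.6% G and C, and contained 16 CpG dinucleotides, against a median of 6 over all 32851 promoters. The Dkk2 window held GC boxes at -60 to -55 and -17 to -12 from the start and a TATA motif at -32 to -27, with 7 CpG dinucleotides. The Dkk1 window held TCF/LEF letters at -117 to -111 (CTTTGAA) and -98 to -92 (CTTTGTT) and a TATA motif at -54 to -49, with 6 CpG dinucleotides. Windows of the same length held the TCF/LEF letters in 14.8% of all promoters, the AP-1 letters in 4.46%, a GC box in 32.7% and a TATA motif in 12.4%. These matches describe letters only, and no binding was measured.

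The values are log2 expression, in which a difference of 1 is a doubling, and levels of different genes are not compared because each probe set has its own response. Across the 12 arrays, Sfrp1, Sfrp2, Sfrp4, Dkk2 and Dkk3 lay above the median of the named clusters on every array, and Sfrp5, Frzb, Wif1 and Dkk1 lay below it on every array. Of the 10 listed FAP markers 9 were measured, all 9 with a mean above the median of all array values, and their mean per array ran from 11.02 to 11.29. Since probe sets differ in response, these levels are a rough guide to the labelled cell type and no test of it. Pdgfra ran from 12.72 to 12.92. For the marker lists of other cells, which are not set against the FAP list, per-array means ran from 6.63 to 7.64 for 10 myogenic genes, 6.18 to 6.40 for 6 endothelial genes, 5.51 to 5.75 for 6 macrophage and leukocyte genes, 6.46 to 6.69 for 7 smooth muscle and pericyte genes, and 6.37 to 6.67 for 3 Schwann genes. The 7 tendon genes ran from 7.01 to 7.72 and the 9 adipocyte genes from 7.12 to 9.12. The 5'ss AMO array with PDGF-AA of replicate 1 stood apart on the adipocyte list, 1.08 above the average of the 12 arrays, where the other 11 arrays lay between -0.93 and 0.49. Fewer cells of a type and less RNA per cell cannot be told apart in such cultures.

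Under control AMO, Sfrp1, Sfrp2, Sfrp4 and Dkk2 were lower on both arrays with PDGF-AA than on both without. Under 5'ss AMO the mean changes of Sfrp1, Sfrp2 and Sfrp4 lay between -0.18 and 0.06, with matched arrays from -0.36 to 0.25, and Frzb and Dkk2 were the genes lower on both arrays. Averaged over AMOs, the log2 change with PDGF-AA was -0.49 for Sfrp1 (SE 0.091), -0.47 for Sfrp4 (SE 0.181), -0.35 for Sfrp2 (SE 0.091) and -0.22 for Dkk2 (SE 0.080), which are 0.71, 0.72, 0.78 and 0.86 times the level without it. The other members lay between -0.14 (Dkk3) and 0.16 (Sfrp5). The median of the 9 was -0.14 against 0.001 over all 21789 clusters with 1 symbol, and 6 of the 9 were below 0 against 49.2% of all clusters. Without the 5'ss array that stood apart, the averaged changes were -0.41 for Sfrp1, -0.31 for Sfrp2 and -0.47 for Sfrp4. In 0 of the 9 did all 6 arrays with PDGF-AA lie below all 6 without it, a separation that 0.115% of clusters showed.

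**Figure D1:**
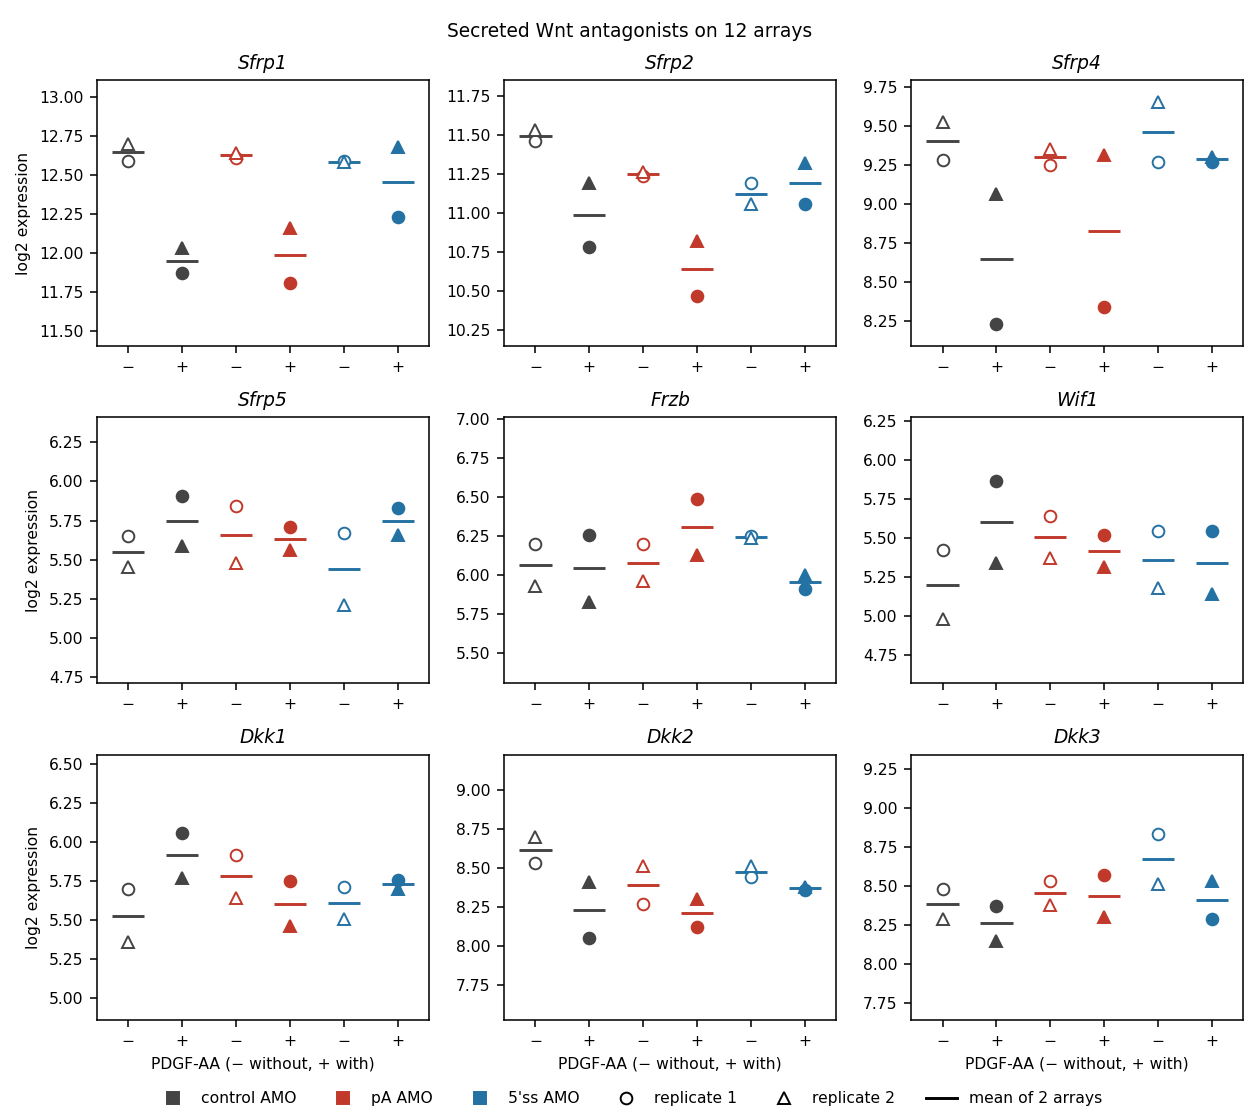
Log2 expression (vertical axes, each spanning the same range) of the 9 genes by AMO (colour) without (open symbols) and with (filled symbols) PDGF-AA; circles are replicate 1, triangles replicate 2 and lines the mean of the 2 arrays. Sfrp1 and Sfrp2 lay lower with PDGF-AA under control AMO and pA AMO, and over all 12 arrays the genes spanned from 0.66 (Frzb, Dkk2) to 1.42 (Sfrp4).

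Sfrp1 (cluster 10570957), a secreted decoy for Wnt ligands, was at 12.59 and 12.70 under control AMO without PDGF-AA, at 12.61 and 12.64 under pA AMO, and at 12.59 and 12.58 under 5'ss AMO. After PDGF-AA the gene was at 11.87 and 12.03 under control AMO, at 11.81 and 12.16 under pA AMO, and at 12.23 and 12.68 under 5'ss AMO. The 6 arrays without PDGF-AA lay close together, the control and pA arrays with PDGF-AA all lay below them, and only replicate 2 of the 5'ss AMO with PDGF-AA reached their range. The PDGF-AA change was -0.69 under control AMO, -0.64 under pA AMO and -0.13 under 5'ss AMO, each with SE 0.157. With 5'ss AMO the arrays of equal replicate number differed by -0.36 and 0.11, and the change was 0.10 without the 5'ss array with PDGF-AA of replicate 1, the array that stood apart on the adipocyte list, and -0.35 without replicate 2. In the order of the 6 group means, the step from 5'ss AMO with PDGF-AA (12.46 ± 0.32, SD, n = 2) down to pA AMO with PDGF-AA (11.98 ± 0.24, SD, n = 2) was 0.47. The pA and control groups with PDGF-AA (11.95 ± 0.11, SD, n = 2) overlapped.

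Sfrp2 (cluster 10492798), a close relative of Sfrp1, was at 11.46 and 11.53 under control AMO without PDGF-AA, at 11.24 and 11.26 under pA AMO, and at 11.19 and 11.06 under 5'ss AMO. After PDGF-AA the gene was at 10.78 and 11.19 under control AMO, at 10.47 and 10.82 under pA AMO, and at 11.06 and 11.32 under 5'ss AMO. Control AMO without PDGF-AA had the highest mean, and pA AMO with PDGF-AA had the lowest mean. The PDGF-AA change was -0.51 under control AMO, -0.60 under pA AMO and 0.06 under 5'ss AMO, each with SE 0.158. The control value was -0.31 without the array with PDGF-AA of replicate 1 and -0.72 without replicate 2, and the 5'ss value was 0.19 without the array that stood apart. Sfrp2 shared with Sfrp1 the low arrays under pA AMO with PDGF-AA, and its arrays without PDGF-AA were highest under control AMO, a difference that did not pass the tests given further on.

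Sfrp4 (cluster 10403834), which belongs with Frzb to a separate branch of the frizzled-related family, was at 9.28 and 9.52 under control AMO without PDGF-AA, at 9.25 and 9.35 under pA AMO, and at 9.27 and 9.65 under 5'ss AMO. After PDGF-AA the gene was at 8.23 and 9.06 under control AMO, at 8.34 and 9.31 under pA AMO, and at 9.27 and 9.30 under 5'ss AMO. The low arrays were the control and pA arrays with PDGF-AA of replicate 1, and replicate 2 of the pA AMO with PDGF-AA lay within the range without PDGF-AA. The change was -0.76 under control AMO, -0.47 under pA AMO and -0.18 under 5'ss AMO, each with SE 0.313. Leaving out replicate 1 of the arrays with PDGF-AA gave -0.34 under control AMO and 0.01 under pA AMO, and leaving out replicate 2 gave -1.17 and -0.96. The 5'ss value ran from -0.37 to 0.01 with 1 array left out. The mean of the adipocyte list, relative to the 12-array average, was -0.93 and -0.80 on those same low arrays and 0.37 and 0.12 on the replicate 2 arrays of those groups. Replicate 1 arrays without PDGF-AA had Sfrp4 at 9.25 to 9.28 and adipocyte means from -0.52 to -0.33. Replicate 2 arrays without PDGF-AA were higher in both, with Sfrp4 at 9.35 to 9.65 and adipocyte means from 0.32 to 0.49. The 5'ss array with PDGF-AA of replicate 1 departed from this, with an adipocyte mean of 1.08 and Sfrp4 at 9.27. The part of adipocyte differentiation in the Sfrp4 values was not tested.

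Sfrp5 (cluster 10467744), the third member of the Sfrp1 branch, stayed between 5.21 and 5.91. Its median over the 12 arrays was 5.66, and its PDGF-AA change was 0.20 under control AMO, -0.02 under pA AMO and 0.30 under 5'ss AMO, each with SE 0.183. The 5'ss value was 0.53 without the array without PDGF-AA of replicate 1 and 0.07 without replicate 2. Leaving out 1 array at a time, the control value ran from 0.04 to 0.36 and the pA value from -0.20 to 0.16. Its arrays with and without PDGF-AA overlapped under all 3 AMOs.

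Frzb (cluster 10484307), the frizzled-related protein also known for its part in cartilage and joints, was at 6.25 and 6.24 under 5'ss AMO without PDGF-AA and at 5.91 and 6.00 with it. With pA AMO it was at 6.20 and 5.96 without PDGF-AA and at 6.49 and 6.13 with it, and under control AMO at 6.20 and 5.93 without and 6.26 and 5.83 with it. Its 5'ss arrays with PDGF-AA were lower than both arrays without, while the pA and control groups overlapped between the PDGF-AA conditions. The changes were -0.29 under 5'ss AMO, 0.22 under pA AMO and -0.02 under control AMO, each with SE 0.171. The control value was -0.24 without the array with PDGF-AA of replicate 1 and 0.20 without replicate 2, and the pA value ran from 0.05 to 0.40 with 1 array left out.

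Wif1 (cluster 10366653), a secreted protein with a WIF domain that binds Wnt ligands, was at 5.42 and 4.98 under control AMO without PDGF-AA and at 5.86 and 5.34 with it. It was at 5.64 and 5.37 without and 5.52 and 5.31 with PDGF-AA under pA AMO, and at 5.54 and 5.18 without and 5.54 and 5.14 with it under 5'ss AMO. Replicate 1 was the higher array in all 6 groups, and the arrays with and without PDGF-AA overlapped under each AMO. Between arrays of equal replicate number, those with PDGF-AA were 0.44 and 0.36 above those without under control AMO, and under pA AMO they differed by -0.11 and -0.07. The change with PDGF-AA was 0.40 under control AMO, -0.09 under pA AMO and -0.02 under 5'ss AMO, each with SE 0.223 (0.088 with the replicate block). With 1 array left out, the control value ran from 0.14 to 0.66, the pA value from -0.22 to 0.04 and the 5'ss value from -0.22 to 0.18.

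Dkk1 (cluster 10467006), an inhibitor that binds LRP5 and LRP6, was at 5.70 and 5.36 under control AMO without PDGF-AA and at 6.06 and 5.77 with it. It was at 5.92 and 5.64 without and 5.75 and 5.46 with PDGF-AA under pA AMO, and at 5.71 and 5.51 without and 5.76 and 5.70 with it under 5'ss AMO. Both control arrays with PDGF-AA were higher than both without, and the other groups overlapped. The share of all clusters with such a rise was not counted. The matching fall under control AMO was shown by 13.6% of clusters. The change was 0.39 under control AMO, -0.17 under pA AMO and 0.11 under 5'ss AMO, each with SE 0.164. The control value was lowest, 0.21, without the array without PDGF-AA of replicate 2 and highest, 0.56, without replicate 1. With 1 array left out the pA value ran from -0.32 to -0.03 and the 5'ss value from 0.02 to 0.21. Its promoter is the one above with the TCF/LEF letters.

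Dkk2 (cluster 10496125), an LRP6-binding protein that can inhibit or, in some settings, activate the pathway, was at 8.53 and 8.70 under control AMO without PDGF-AA and at 8.05 and 8.41 with it. It was at 8.27 and 8.51 without and 8.12 and 8.30 with PDGF-AA under pA AMO, and at 8.44 and 8.51 without and 8.36 and 8.38 with it under 5'ss AMO. The arrays with PDGF-AA were lower in each AMO, with an overlap under pA AMO alone. The change was -0.39 under control AMO, -0.18 under pA AMO and -0.10 under 5'ss AMO, each with SE 0.139. The control value was -0.21 without the array with PDGF-AA of replicate 1 and -0.57 without replicate 2, and the pA value ran from -0.30 to -0.06 with 1 array left out.

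Dkk3 (cluster 10567010) was at 8.83 and 8.51 under 5'ss AMO without PDGF-AA and at 8.29 and 8.53 with it. The other 8 arrays lay between 8.15 and 8.57. The change with PDGF-AA was -0.13 under control AMO, -0.02 under pA AMO and -0.26 under 5'ss AMO, each with SE 0.154. Its 5'ss groups overlapped between the PDGF-AA conditions. With 1 array left out, the control value ran from -0.24 to -0.02 and the 5'ss value from -0.42 to -0.10. The pA value ran from -0.16 to 0.11, being above 0 without the array with PDGF-AA of replicate 2 or the array without it of replicate 1.

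Counted within each AMO, both arrays with PDGF-AA lay below both without for Sfrp1, Sfrp2, Sfrp4 and Dkk2 under control AMO (4 of 9, against 13.6% of all clusters). The same held for Sfrp1 and Sfrp2 under pA AMO (2 of 9, against 12.3%) and for Frzb and Dkk2 under 5'ss AMO (2 of 9, against 10.5%). When arrays were matched by AMO and replicate number, Sfrp4 and Dkk2 were lower with PDGF-AA in 6 of 6 pairs, a pattern found in 2.3% of clusters. For Sfrp4 this includes differences of -0.03 (pA AMO, replicate 2) and -0.01 (5'ss AMO, replicate 1), small beside its SE of 0.313. Sfrp1 and Sfrp2 were lower in 5 of 6 pairs, the exception being replicate 2 of the 5'ss AMO, and 12.23% of clusters were lower in at least 5 pairs. These counts describe the contrast with which the genes were proposed.

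**Figure D2:**
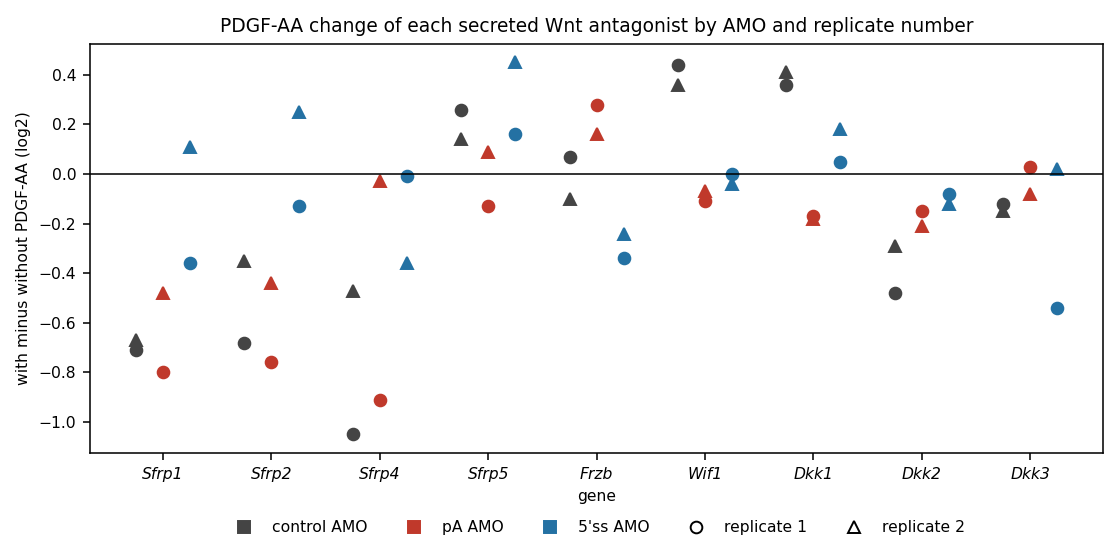
Log2 difference with minus without PDGF-AA (vertical axis) for each of the 9 genes (horizontal axis), by AMO (colour) and replicate number (circle 1, triangle 2). For Sfrp1 and Sfrp2 the control and pA points lie between -0.80 and -0.35 and the 5'ss points between -0.36 and 0.25.

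Differences between AMOs, unlike the averaged PDGF-AA change with which the genes were proposed, were tested with limma in 12 comparisons: the AMOs taken pairwise, as a mean over both PDGF-AA conditions and in each of them, and each pair's difference in PDGF-AA effect. The last 3 are built from the PDGF-AA changes described above. In these 12 comparisons limma called 0 of the 9 genes and 0% of all clusters at an adjusted p of 0.05, and with the replicate block it again called 0 of the 9. Unadjusted p values under 0.05 were reached by 0 to 2 members per comparison, and by 1.49% to 6% of all clusters. The count was 2 of 9 for pA against 5'ss AMO with PDGF-AA, against 3.83% of clusters. It was also 2 of 9 for the difference in PDGF-AA effect of 5'ss from control AMO (2.95% of clusters) and of pA from 5'ss AMO (1.92%). The largest of these counts over all clusters was for 5'ss AMO against control AMO with PDGF-AA, where limma gave a smallest adjusted p of 0.0601, and 22 clusters, no member among them, were called with the replicate block.

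With PDGF-AA present, Sfrp1 was higher under 5'ss AMO than under control AMO by 0.51 (SE 0.157, limma adjusted p = 0.794, and 0.137 with the replicate block). Without the 5'ss array with PDGF-AA of replicate 1, the difference was 0.73, and without replicate 2 it was 0.28. Sfrp4 differed by 0.64 in the same comparison (SE 0.313, limma adjusted p = 0.823), with 1.04 between the replicate 1 arrays and 0.24 between those of replicate 2. Sfrp2 differed by 0.21 (SE 0.158, limma adjusted p = 0.867), and Dkk2 by 0.14, with 0.31 and -0.03 between matched arrays. Over the 9 genes, 5 differences were above 0 and 4 below (Wif1 at -0.26, Dkk1 at -0.19, Frzb at -0.09 and Sfrp5 at -0.01), and none passed the test.

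Sfrp2 was lower under pA AMO than under 5'ss AMO in the presence of PDGF-AA, by a log2 difference of -0.54 (SE 0.158, limma adjusted p = 1, and 0.261 with the replicate block). Sfrp1 differed by -0.47 in that comparison (SE 0.157, limma adjusted p = 1). Sfrp4 differed by -0.46, which was 0.03 without the pA array with PDGF-AA of replicate 1 and -0.94 without replicate 2. Frzb had the opposite sign, 0.35 (SE 0.171). Between pA AMO and control AMO with PDGF-AA, Sfrp1 differed by 0.03, with a 95% interval of the limma fit from -0.32 to 0.38. The corresponding values were -0.34 for Sfrp2 and -0.31 for Dkk1, both with a limma adjusted p of 0.950.

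Without PDGF-AA, Sfrp2 had a lower mean with both targeting AMOs than under control AMO. The differences were -0.37 for 5'ss AMO (SE 0.158, limma adjusted p = 1) and -0.25 for pA AMO (SE 0.158, limma adjusted p = 1). Both share the 2 control arrays. Sfrp1 differed by -0.06 and -0.02 in the same comparisons, with 95% intervals from -0.41 to 0.29 and from -0.37 to 0.33. Dkk3 was 0.28 higher under 5'ss AMO (SE 0.154, limma adjusted p = 1), with 0.34 and 0.21 between arrays of equal replicate number. Averaged over PDGF-AA, the pA AMO difference of Sfrp2 from control AMO was -0.29 (SE 0.112, limma adjusted p = 1.000, and 0.457 with the replicate block), and it was below 0 in 4 of 4 matched arrays.

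The PDGF-AA change of Sfrp1 was 0.57 less negative under 5'ss AMO than under control AMO (95% interval 0.07 to 1.06, limma adjusted p = 1, and 0.487 with the replicate block). For Sfrp2 this difference was 0.57 (95% interval 0.08 to 1.07, limma adjusted p = 1, and 0.492 with the block), and for Sfrp4 it was 0.58 (95% interval -0.41 to 1.56). Between arrays of equal replicate number it was 0.35 and 0.78 for Sfrp1, 0.55 and 0.60 for Sfrp2, and 1.05 and 0.11 for Sfrp4. Without the 5'ss array with PDGF-AA of replicate 1 it was 0.79 for Sfrp1, 0.70 for Sfrp2 and 0.59 for Sfrp4. Intervals are not adjusted for the number of genes, and no value passed the adjusted threshold.

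The PDGF-AA change under pA AMO minus that under 5'ss AMO was -0.67 for Sfrp2 (95% interval -1.16 to -0.17, limma adjusted p = 1.000), -0.51 for Sfrp1 (95% interval -1.01 to -0.02) and 0.51 for Frzb (95% interval -0.03 to 1.05). This comparison shares the 5'ss arrays with the previous one. Between pA AMO and control AMO the difference was 0.05 for Sfrp1 (95% interval -0.44 to 0.55) and -0.09 for Sfrp2 (95% interval -0.59 to 0.41). For Dkk1 it was -0.56 (SE 0.232, limma adjusted p = 1.000, and 0.45 with the replicate block), with -0.52 and -0.59 in the matched arrays. For Wif1 it was -0.49 (SE 0.316, limma adjusted p = 1.000, and 0.45 with the block), with -0.55 and -0.43 in the matched arrays. Dkk1 and Wif1 lay below the median on every array, where small changes are to be read with caution. Other secreted modulators with means below the median also rose under control AMO and fell under pA AMO. These were Dkk4 (0.38 and -0.23), Notum (0.20 and -0.21), Dkkl1 (0.15 and -0.14), Cer1 (0.05 and -0.12) and Sost (0.01 and -0.12). Rspo1, Rspo2, Rspo4, Sostdc1 (0.28 and 0.00) and Ndp (-0.03 and -0.02) did not show both signs.

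**Figure D3:**
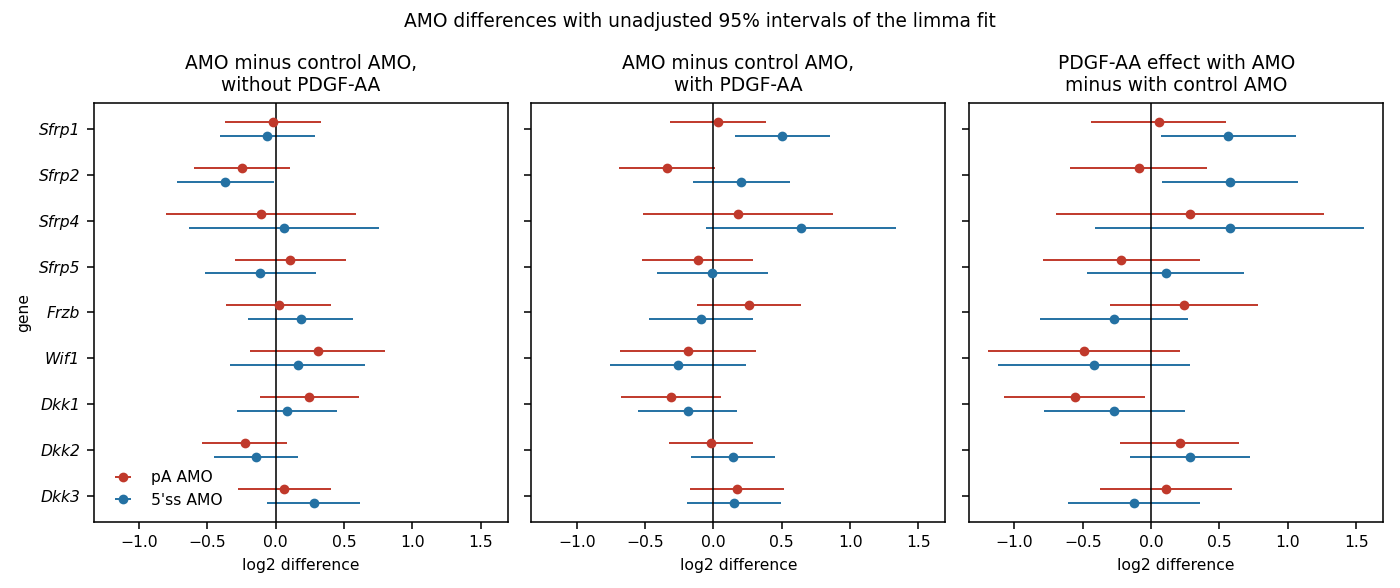
Log2 differences (horizontal axes) of the 9 genes for pA AMO (red) and 5'ss AMO (blue) against control AMO, without PDGF-AA (left), with PDGF-AA (middle), and as the difference in PDGF-AA effect (right); points are estimates and bars unadjusted 95% intervals of the limma fit. The blue points of Sfrp1, Sfrp2 and Sfrp4 lie to the right of 0 in the middle and right panels, and no gene passed the adjusted threshold.

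By the root mean square difference over the 12 arrays, after each cluster was centred on its own mean, the closest pairs among the members above the median were Sfrp2 with Dkk2 (0.175) and Sfrp1 with Sfrp2 (0.176). The difference was 0.237 for Sfrp1 with Sfrp4. Sfrp1 itself spread by 0.318 around its mean, Sfrp2 by 0.289 and Sfrp4 by 0.413. Among the members below it, Wif1 with Dkk1 (0.113) and Sfrp5 with Dkk1 (0.116) were closest, and all 3 were higher in replicate 1. Replicate 1 was above replicate 2 in 6 of 6 groups for Wif1, Sfrp5 and Dkk1, by 0.37, 0.28 and 0.24 on average. Among the 8716 dim clusters, the lowest 40 percent, to which these 3 belong, replicate 1 was higher in all 6 groups for 21.4%, with a median shift of 0.12. Among the other 13073 it was higher in all 6 for 9.0%, with a median shift of -0.07. Sfrp4 shifted the other way, by -0.43.

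Outside the members, the 3 genes whose pattern over the 12 arrays was closest to Sfrp1 were Fmod, a matrix proteoglycan (difference 0.102), Phyhipl (0.106) and S1pr3, a sphingosine-1-phosphate receptor (0.107). The PDGF-AA change of Fmod was -0.71 under control AMO, -0.84 under pA AMO and -0.03 under 5'ss AMO, beside -0.69, -0.64 and -0.13 for Sfrp1. Fmod was picked for its likeness to Sfrp1 on these same arrays, so alike changes follow from that choice. The call of Fmod given below is therefore no result separate from that of Sfrp1. Closest to Sfrp2 were Entpd2, an ectonucleotidase (0.106), Adamtsl4 (0.123) and Mmp23 (0.128). Closest to Sfrp4 were Apoe, the lipid carrier apolipoprotein E (0.112), Ggt5 (0.139) and Mme, the membrane peptidase neprilysin (0.144). Closest to Wif1 were Spn (0.062), Endou (0.067) and Clec4g (0.070), beside a spread of 0.229 for Wif1 itself. The comparison covers 12 arrays that share 6 groups and 2 replicate numbers.

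Of the 7 tendon genes, 6 were below 0 for PDGF-AA under control AMO (against 46.7% of all clusters), 5 under pA AMO (52.6%) and 2 under 5'ss AMO (52%). Within an AMO, 0 were called. The mean of the 7, which include Fmod, differed by -0.36 and -0.45 under control AMO, -0.43 and -0.39 under pA AMO, and 0.03 and 0.19 under 5'ss AMO, for replicates 1 and 2. Comp, a cartilage and tendon matrix protein on that list, differed by -1.34, -1.36 and 0.08. Scx, a tendon transcription factor and the listed gene not below 0 under control AMO, differed by 0.12, 0.01 and 0.17. Averaged over AMOs, Comp (-0.88, SE 0.169, limma adjusted p = 0.342) and Fmod (-0.53, SE 0.081, limma adjusted p = 0.322) were called for PDGF-AA with the replicate block alone (adjusted p = 0.041 and 0.0481), and Comp was also called with it in 3 AMO comparisons. The mean of the adipocyte list differed by -0.60 and -0.12 under control AMO, -0.42 and -0.20 under pA AMO, and 1.59 and -0.12 under 5'ss AMO. The mean of the 10 myogenic genes differed by -0.24 and 0.34 under control AMO, -0.51 and -0.25 under pA AMO, and 0.42 and -0.16 under 5'ss AMO. All 10 were below 0 under pA AMO, against 52.6% of all clusters, with a median of -0.49. The FAP list differed by -0.13 to 0.02 in these 6 pairs. The part of other cell types in the values of the Wnt antagonists was not tested.

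The rest of the Wnt pathway was described with 5 lists. In the limma fit without the block, 0 genes of any of the 5 lists passed in either direction in any of the comparisons, PDGF-AA changes included. At an unadjusted p under 0.05 there were 5 of the 88 measured genes for PDGF-AA averaged over AMOs, against 3.39% of all clusters. In the 12 AMO comparisons there were 0 (5'ss against control AMO without PDGF-AA, against 2.07% of clusters) to 9 (pA against 5'ss AMO with PDGF-AA, against 3.83%). Of 19 Wnt ligands, 9 were above and 10 below 0 for PDGF-AA averaged over AMOs, with a median of -0.002. The ligands named by the rule were Wnt10a at 0.12 (SE 0.122), Wnt11 at -0.11 (SE 0.069) and Wnt4 at -0.07 (SE 0.080). Of 22 receptors and co-receptors, 9 were above and 13 below 0, with a median of -0.013. Lrp6, the co-receptor bound by Dkk1 and Dkk2, was at -0.17 (SE 0.066), the receptor Fzd1 at -0.16 (SE 0.068), and Ror1, a receptor of the non-canonical branch, at -0.11 (SE 0.054).

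Of 22 intracellular components, 10 were above and 12 below 0, with a median of -0.005. Porcn, which adds the lipid that Wnt ligands need for secretion, was at -0.20 (SE 0.112), and the co-repressors Tle1 and Tle3 were at -0.09 and 0.09. Of 13 measured β-catenin target genes out of 15, 5 were above and 8 below 0, with a median of -0.09. Ccnd1, the cell cycle gene for cyclin D1, was at 0.24 (SE 0.108), Bmp4, a bone morphogenetic protein, at -0.22 (SE 0.079), and Apcdd1, itself a Wnt inhibitor at the membrane, at -0.17 (SE 0.145). Axin2, the commonly used readout of canonical signalling, was at -0.11. These values stand beside a median of 0.001 over all clusters.

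Averaged over PDGF-AA, the 5'ss minus control AMO difference was 0.20 for Wnt16, 0.16 for Lrp6 and for Ror1, -0.15 for Ror2, 0.26 for Porcn, 0.16 for Tle1 and -0.11 for Tcf7l1. Among the target genes it was 0.34 for Bmp4 (SE 0.096), 0.27 for Nkd1, an intracellular inhibitor (SE 0.095), and 0.21 for Apcdd1 (SE 0.177). Wnt10a differed by -0.13 and Wnt11 by 0.10. The list medians for this difference were -0.001 for ligands, 0.03 for receptors, 0.02 for intracellular components and 0.06 for target genes, beside -0.008 over all clusters. The smallest limma adjusted p among genes of these 4 lists, over all comparisons, was 0.656, for Bmp4 under 5'ss AMO against control AMO in the presence of PDGF-AA.

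The remaining list held other secreted modulators, of which 12 of 13 were measured, with 5 above and 7 below 0 for PDGF-AA and a median of -0.006. Draxin (cluster 10518464), an axon guidance protein reported to inhibit Wnt signalling at LRP6, was at 8.66 and 8.47 under control AMO without PDGF-AA, at 8.36 and 8.38 under pA AMO, and at 8.54 and 8.88 under 5'ss AMO. After PDGF-AA the gene was at 7.35 and 7.75 under control AMO, at 7.42 and 7.88 under pA AMO, and at 8.45 and 8.85 under 5'ss AMO. The control and pA arrays with PDGF-AA all lay below the 8 other arrays, as they did for Sfrp1. Its PDGF-AA change was -1.01 under control AMO, -0.72 under pA AMO and -0.06 under 5'ss AMO, each with SE 0.202.

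With PDGF-AA present, Draxin was 1.10 higher under 5'ss AMO than under control AMO (limma adjusted p = 0.29), and with the replicate block it was called (limma adjusted p = 0.0468). It was the only gene of the 5 pathway lists called in any comparison with the block. Rspo3, an R-spondin that enhances Wnt signalling, was at -0.01 for PDGF-AA and at -0.18 for 5'ss minus control AMO. Rspo1, another R-spondin, lay outside the naming rule because its mean was not above the overall median, and was chosen after its values were seen. Its PDGF-AA change was -0.56 under control AMO, -0.23 under pA AMO and -0.20 under 5'ss AMO, each with SE 0.122. The list as a whole had a median of -0.07 for 5'ss minus control AMO averaged over PDGF-AA, with 3 genes above and 9 below 0.

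**Figure D4:**
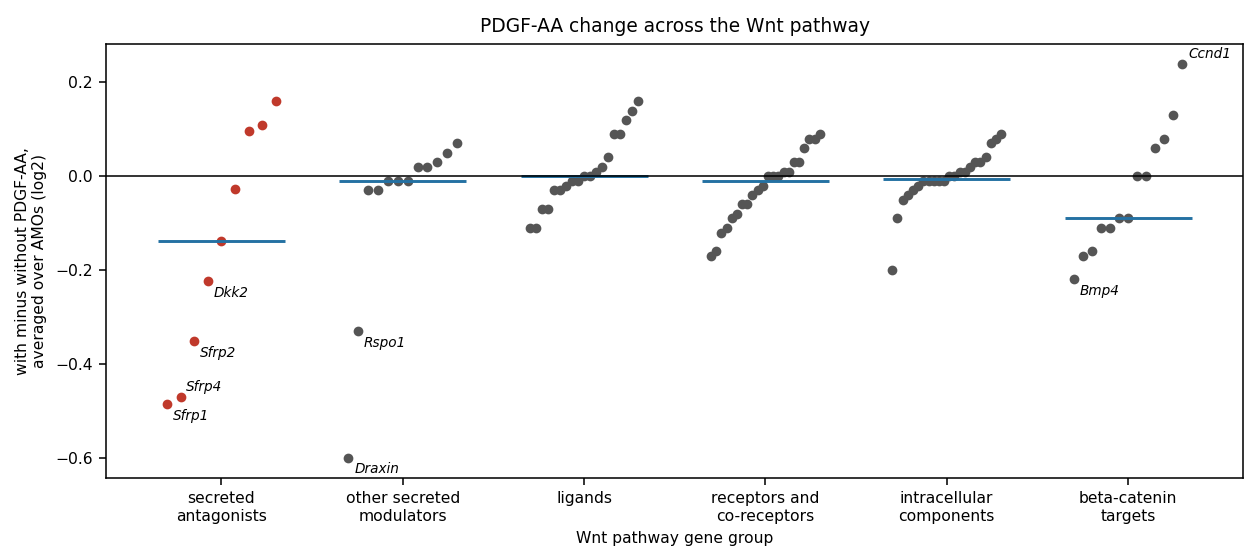
Log2 change with PDGF-AA averaged over AMOs (vertical axis) for the 9 secreted antagonists (red) and 5 lists of other Wnt pathway genes (grey), ordered within each list; blue lines are list medians. Sfrp1, Sfrp4, Sfrp2, Draxin and Rspo1 lie at -0.33 or below, and the ligands, receptors, intracellular components and target genes lie between -0.22 and 0.24.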

How the data were processed

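The deposited values are log2 expression values that the authors made with RMA, run in Affymetrix Expression Console, as the submitters' processing notes state. Versions and genome build are not given in the sources used here. RMA subtracts background, forces the arrays to a common distribution and then combines probes, so a change common to most genes would be removed. Array medians were 6.04 to 6.23.

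The platform annotation gives exactly 1 symbol to 21789 of 35556 clusters, several to 1621, and does not list 12146. All 12 arrays entered a limma 3.58.1 fit in R 4.3.3, with 1 mean per group (6 residual degrees of freedom) and neither trend nor robust options. P-values were two-sided, and the 21789 clusters were the family for Benjamini-Hochberg adjustment at 0.05. The fit was tested on simulated data with independent noise and with changes larger than those of the members. That run does not show how well small changes are found in these arrays. The members, lists and tests were chosen with earlier results of these data known. Replicates pool cells of 2 mice, and no label says whether the pools were separate between groups, so p-values measure the spread between these arrays.

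Same-numbered arrays deviated together in all 15 pairs of groups (correlations 0.20 to 0.61), which no label explains. By correlation, 12 of the 12 arrays were closest to one of their own replicate number and 0 to the other of their own group. The numbers were therefore taken to pair the arrays, and a replicate block was fitted as an alternative. SEs and intervals given without the block also hold the spread between replicate numbers. Within an AMO, the SE of the Wif1 change was 0.223 without the block and 0.088 with it. Of each pathway list, up to 3 genes brighter than the overall median were named for PDGF-AA and for 5'ss against control AMO, by size. Genes with several clusters entered by the brightest. Likeness was computed for members spanning at least 0.8. Other alternatives were a filter on dim clusters (the lowest 40 percent), testing unnamed clusters too, a second quantile normalization, centring arrays on their medians, robust moderation with a trend, weighting arrays by quality, fewer AMOs in the fit, and leaving out each array.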

Additional observations from a re-analysis of the deposited data

How the results depend on the processing

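The number of the 9 genes called stayed at 0 in all 12 AMO comparisons under every alternative, which with 2 arrays a group says little about stability. The replicate block called 0 members in these comparisons and so changed no call of a member there; the calls it did change, for Sfrp1, Draxin, Comp and Fmod, stand in the text above. Leaving out each array in turn, the number of members whose arrays with PDGF-AA all lay below those without ran from 0 to 1. It was 1 without the pA array without PDGF-AA of replicate 1 (Dkk2) and without the 5'ss array with PDGF-AA of replicate 2 (Sfrp1). The share of all clusters was counted with all 12 arrays (0.115%) and not with an array left out. The Sfrp4 difference of pA minus 5'ss AMO with PDGF-AA ran from -0.945 to 0.030 when each array was left out, against -0.457 with all arrays, and its sign turned without the pA array with PDGF-AA of replicate 1. A lone array left in a group was assumed to vary like the others. Sfrp5, Wif1 and Dkk1 were removed by the filter on dim clusters, so that alternative gave no values for them. Small changes in such dim genes are to be read with caution.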
